A study of Homo sapiens with 36 samples.

Results

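The data comprised RNA-seq counts for 38 genes of small extracellular vesicle formation and release, chosen by gene name from the 58735 genes of the count table: 6 tetraspanins, 4 genes of the syndecan-syntenin-ALIX route, 14 ESCRT genes, 2 VPS4 ATPases, 7 RAB GTPases, ARF6, 2 neutral sphingomyelinases and 2 flotillins. The 38 genes had the same start, end and strand as in GENCODE 29 (hg38). The libraries came from HN4, HN6 and Cal27, established human head and neck squamous carcinoma lines, with 3 libraries in each of 12 groups. In 1 experiment of 18 libraries each line was left untreated or given 100 ng/ml IL-8 for 24 hours. In the other, also of 18 libraries, each line was transfected with an ACLY plasmid or with the empty vector; ACLY is the enzyme that makes cytosolic acetyl-CoA from citrate. All groups were grown with serum depleted of exosomes, and the labels give no separate cultures for the replicates. Each p-value reads a difference against the spread of replicates within groups, estimated jointly over all libraries of a fit. That spread may be only technical. The design text asks what IL-8 does to cells that differ in the IL-8 receptor CXCR1, and what lies downstream of ACLY.

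Small extracellular vesicles called exosomes form when the membrane of a late endosome buds inwards, and they leave the cell when that endosome fuses with the plasma membrane. ESCRT complexes sort cargo and cut the bud free, with the VPS4 ATPases taking the filaments apart afterwards. Syntenin (SDCBP) links syndecans to the ESCRT partner ALIX (PDCD6IP), tetraspanins such as CD63 and CD9 are the usual markers of the vesicles, neutral sphingomyelinases make ceramide for budding without ESCRT, and RAB27A and RAB27B dock the endosome at the plasma membrane. RAB7A directs it to the lysosome, while RAB31 drives formation of vesicles with the flotillins and holds RAB7A back. RNA levels say nothing of vesicle number, and in bulk RNA fewer cells of a type and less RNA per cell cannot be told apart.

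Of the 38 genes, 31 had an entry in the promoter table (RefSeq, GRCh38.p14), and 4 promoters are shown because their genes carry the responses described below: SDC4, which fell with IL-8 in HN4 and HN6 (chr20:45348425-45348674, minus strand), CHMP2A, which rose in both treatments of HN6 (chr19:58555106-58555355, minus strand), RAB31, which moved in opposite directions in HN6 and Cal27 (chr18:9708051-9708300, plus strand), and RAB5A, which rose in both treatments of Cal27 (chr3:19946847-19947096, plus strand). Each run is the 250 bases before the start of the gene, read 5′ to 3′ on its own strand, with the E-box CACGTG and the GC box GGGCGG (either strand) in capitals.
SDC4: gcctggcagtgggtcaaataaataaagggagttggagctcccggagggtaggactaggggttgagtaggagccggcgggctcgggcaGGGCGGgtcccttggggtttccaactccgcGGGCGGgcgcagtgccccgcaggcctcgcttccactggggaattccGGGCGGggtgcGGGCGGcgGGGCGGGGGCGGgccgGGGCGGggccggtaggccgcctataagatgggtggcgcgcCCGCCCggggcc
CHMP2A: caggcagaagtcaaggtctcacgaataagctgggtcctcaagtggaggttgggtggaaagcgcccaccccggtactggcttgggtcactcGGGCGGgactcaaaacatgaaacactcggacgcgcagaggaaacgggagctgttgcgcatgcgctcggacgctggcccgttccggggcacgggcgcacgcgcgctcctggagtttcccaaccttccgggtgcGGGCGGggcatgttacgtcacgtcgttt
RAB31: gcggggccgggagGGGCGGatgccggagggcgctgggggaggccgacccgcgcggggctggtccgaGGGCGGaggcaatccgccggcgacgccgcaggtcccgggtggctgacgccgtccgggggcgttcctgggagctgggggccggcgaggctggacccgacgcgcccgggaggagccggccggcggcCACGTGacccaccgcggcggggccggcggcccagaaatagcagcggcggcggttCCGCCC
RAB5A: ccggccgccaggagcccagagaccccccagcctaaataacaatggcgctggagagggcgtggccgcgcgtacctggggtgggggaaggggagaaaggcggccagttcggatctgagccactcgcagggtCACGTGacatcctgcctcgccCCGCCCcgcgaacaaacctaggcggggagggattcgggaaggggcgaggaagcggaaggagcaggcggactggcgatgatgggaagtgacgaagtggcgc
The SDC4 run held 8 GC boxes, and those of CHMP2A, RAB31 and RAB5A held 2, 3 and 1. An E-box stood 60 bases before the start of RAB31 and 121 before that of RAB5A. In windows of 300 bases, searched on both strands (250 before to 50 after the start), CACGTG was in 6 of the 31 promoters (CD63, CHMP4A, PDCD6IP, RAB31, RAB5A and VPS37B) and in 7.26% of all 35116 in the table, and TCACGTGA, which contains it, in 3 and in 0.98%. GGGCGG was in 26 of 31 and in 45% of all, CCGGAAGT in 8 and 4.14%, CCAAT in 6 and 34.6%, TGANTCA in 4 and 7.71%, and TATAAA in 1 and 11.5%. A match is a description of the letters and not a site of binding, and gene starts are those of RefSeq, which for CHMP2A, RAB31 and RAB5A lie inside the gene as GENCODE draws it.

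Levels are given as CPM, counts scaled to library depth, on totals of 16570601 to 20232735 counts per library; a gene with no count could still lie at up to 0.148 to 0.181 CPM (3 counts of the total, counting error only). The 38 genes held 0.473% to 0.638% of the counts of a library. ACLY, the check of the plasmid labels, averaged 268 ± 4.98 CPM (SD, n = 3) in HN6 vector and 2210.1 ± 65.3 in HN6 ACLY, and 230.1 ± 12.1 and 1901 ± 40.2 in Cal27, but in HN4 it went against the labels, with 1508 ± 10.04 in the libraries labelled vector and 348 ± 30.4 in those labelled ACLY. ACLY was also at 1351 ± 18.1 CPM in HN4 with IL-8 and 374 ± 5.19 without, and at 1170.1 ± 110.3 and 233 ± 4.98 in Cal27. Directions in HN4 plasmid libraries are therefore given as labelled. Across 9 genes read in untreated HN4 (at least 20 CPM) and not in untreated HN6 or Cal27 (at most 0.3 CPM), the level in Cal27 with IL-8 was 0.310 ± 0.0191 of that in HN4 and in Cal27 with ACLY 0.541 ± 0.00516, while in the 10 genes read only in untreated Cal27 those groups held 0.594 ± 0.0597 and 0.244 ± 0.0131 of the Cal27 level. With looser limits (at least 10 CPM and at most 0.5), 19 HN4 genes gave 0.288 ± 0.0140 and 0.492 ± 0.00451, and 28 Cal27 genes gave 0.623 ± 0.0521 and 0.401 ± 0.0306. Summed squamous markers (KRT5, KRT14, KRT6A, TP63, CDH1 and EPCAM) ran from 5850 to 6476 CPM in the Cal27 controls, 4340 to 5122 with IL-8 and 3297 to 3462 with ACLY, against 941 to 1016 in HN4 and 1818 to 2010 in HN6, with 5 of the 6 at 1 CPM or more in HN4 and HN6. Of the leukocyte markers, PTPRC reached at most 0.117 CPM in any library, CD3E 1.27, CD68 0.276 and LYZ 0.165. The 4 endothelial markers summed to at most 28.2 CPM, mostly CDH5, and the 7 fibroblast markers to 60.6, mostly COL1A1, with COL3A1, DCN and PDGFRA at most 0.175 CPM. Replicate 3 of Cal27 IL-8 stood apart, with 1.06% of counts from mitochondrial genes against 2.15% in HN4 ACLY replicate 3 and 3.16% to 6.24% in the other 34 libraries; the counts of calls and the named differences of Cal27 with IL-8 are given with and without it.

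Every vesicle gene but the tetraspanin TSPAN8, at most 0.368 CPM in any library, was read well enough to be tested, which left 37 of 38. Per kilobase of gene length (RPKM), the highest medians over the 12 groups were those of SDC4, a cell-surface heparan sulfate proteoglycan, at 208, CD63 at 149.7, RAB7A at 141, the filament subunit CHMP4B at 116 and SDC1 at 109. The lowest were SMPD3, the neutral sphingomyelinase nSMase2, at 0.258 and CHMP4A at 0.624. Within a group the libraries were close: the median coefficient of variation over the 37 genes was 4.96%. Between groups the median gene spanned 2.03-fold from its lowest to its highest mean; 19 of 37 spanned at least 2-fold and 4 at least 3-fold, namely SMPD3 (4.13-fold), RAB31 (3.67-fold), CD82 (3.58-fold) and VPS28 (3.13-fold). Reads of CHMP4A are uncertain, since 68.8% of its exon bases lie in exons of another gene on the same strand, as do 27.9% for VPS37B, 21.01% for VPS4A and 10.5% for SMPD3, and opposite-strand overlaps cover 23.5% of HGS, 21.5% of CHMP6, 20.3% of SMPD2 and 14.8% of RAB35.

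Some members spanned less than most. CHMP2B, the ESCRT-III subunit mutated in a form of frontotemporal dementia, spanned 1.28-fold over the 12 group means, from 70.9 CPM in HN4 untreated to 90.5 in Cal27 IL-8, the narrowest span of the 37. TSG101, the ESCRT-I subunit that binds cargo and viral late domains, spanned 1.52-fold, FLOT2 1.55-fold and HGS 1.56-fold. RAB7A had the tightest replicates, with a median coefficient of variation of 1.76%, and SMPD3 and CHMP4A the widest, at 21.3% and 19.8%. The highest mean of 14 genes was in a HN4 group, of 14 in a HN6 group and of 9 in a Cal27 group; the lowest mean of 16 was in a Cal27 group, of 13 in a HN6 group and of 8 in a HN4 group.

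**Figure D1:**
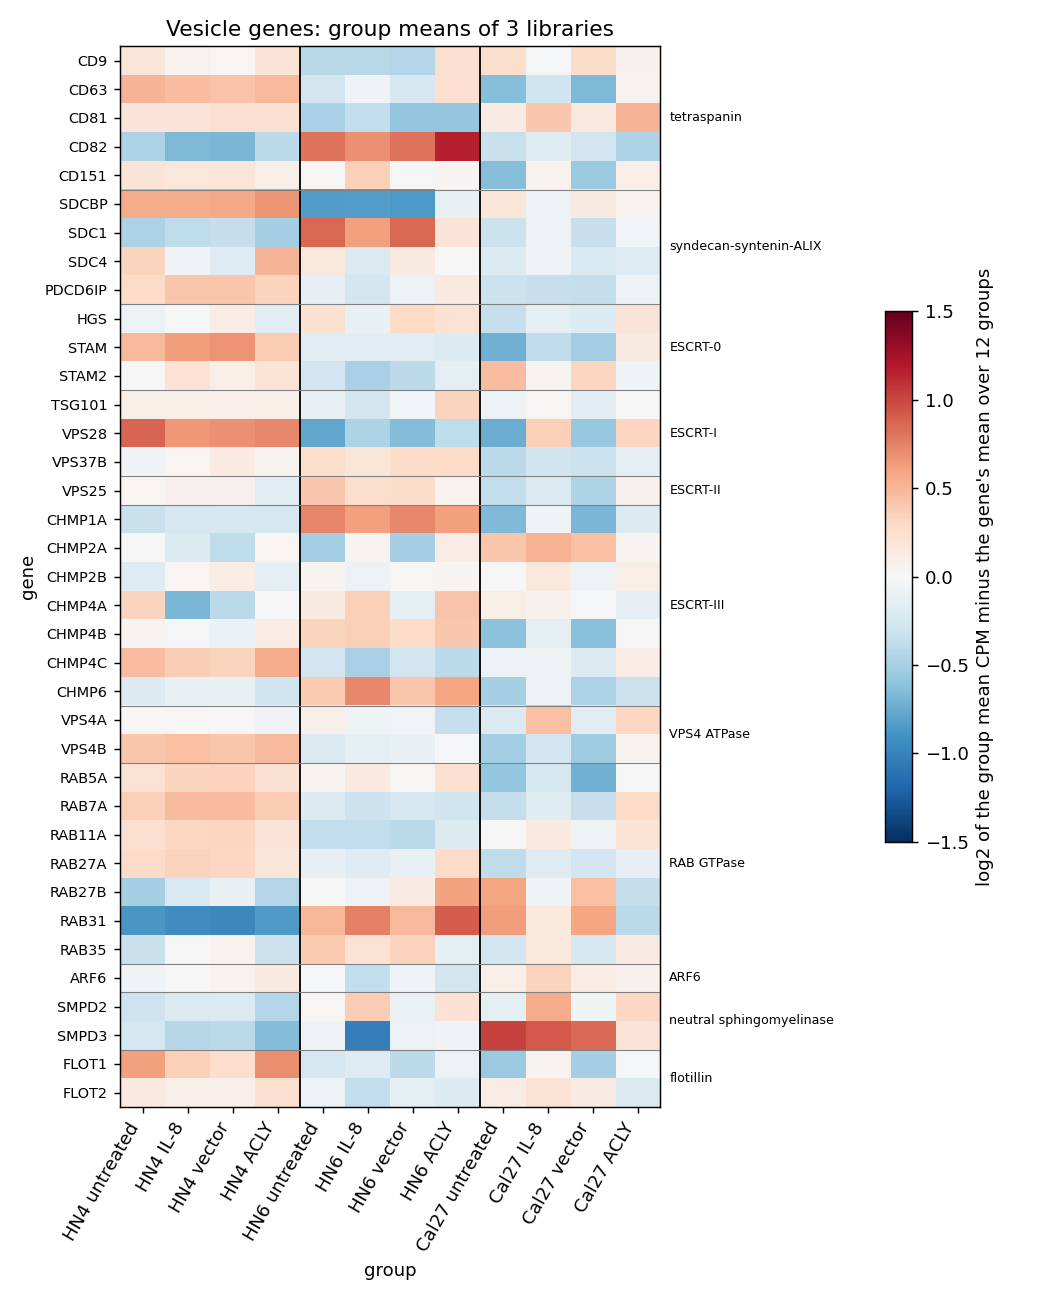
Group means of the 37 tested genes (rows, ordered by role) in the 12 groups (columns), as log2 of the mean CPM of 3 libraries minus the gene's mean over the 12 groups (colour; red above, blue below). The blocks of HN4, HN6 and Cal27 columns differ by line, and the HN6 ACLY and Cal27 ACLY columns differ from the other columns of their line.

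Between the untreated lines the vesicle genes had different leaders. HN4 was the line of VPS28, CD63, SDCBP and FLOT1. HN6 was that of SDC1, CD82 and CHMP1A, and Cal27 had the most SMPD3 and CHMP2A, while RAB31 was low in HN4 alone. Of the 37 genes, HN6 had 12 higher and 16 lower than HN4, against 32.4% and 34.7% of all tested genes; Cal27 had 6 higher and 18 lower than HN4, against 32.2% and 31.4%; and Cal27 had 9 higher and 16 lower than HN6, against 35.3% and 33.1%. In either direction that is 28, 24 and 25 of 37, beside 67.2%, 63.6% and 68.4% of all genes, so calls were about as common as among genes at large. The median log2 difference of the 37 was -0.18, -0.23 and -0.17 in these comparisons, against -0.0330, 0.00224 and 0.0303 over all genes.

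Among the tetraspanins, CD63 read 583, 521 and 571 CPM in untreated HN4, 349.9, 267 and 358 in HN6 and 276, 232 and 251 in Cal27. HN4 lay above both other lines without overlap, and HN6 and Cal27 overlapped (HN6 against HN4: log2 difference -0.79, SE 0.0974, edgeR adjusted p = 1.14e-06; Cal27 against HN4: log2 difference -1.12, SE 0.0980, edgeR adjusted p = 1.35e-08). Cal27 was also called lower than HN6 (log2 -0.33, edgeR adjusted p = 0.00558). CD82, a tetraspanin known as a metastasis suppressor, read 280.4, 208 and 268 CPM in HN6, against 104, 95.99 and 109 in HN4 and 134, 96.2 and 112 in Cal27. HN6 was thus above every library of the other lines (HN6 against HN4: log2 difference 1.28, SE 0.18, edgeR adjusted p = 6.36e-06; Cal27 against HN6: log2 difference -1.12, SE 0.18, edgeR adjusted p = 2.81e-05). CD9 was lower in HN6 than in HN4 (log2 -0.60, edgeR adjusted p = 9.37e-07) and higher in Cal27 than in HN6 (0.71, 1.19e-07), and CD81 did the same (-0.70, 1.49e-06 and 0.64, 4.19e-06).

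The syndecan-syntenin route split between HN4 and HN6. SDCBP, or syntenin, read 582, 591 and 569 CPM in HN4, 422, 462 and 449.7 in Cal27 and 211, 234 and 212 in HN6. The 3 lines did not overlap, in that order (HN6 against HN4: log2 difference -1.42, SE 0.11, edgeR adjusted p = 3.10e-09; Cal27 against HN6: log2 difference 1.05, SE 0.11, edgeR adjusted p = 1.44e-07). SDC1, its syndecan partner (chr2:20200797-20225433, hg38), ran the other way, with 872, 714 and 856 CPM in HN6, 336, 306 and 333 in HN4 and 396, 339 and 346 in Cal27. HN6 exceeded both without overlap (against HN4: log2 difference 1.31, SE 0.0920, edgeR adjusted p = 6.54e-10; Cal27 against HN6: log2 difference -1.15, SE 0.0916, edgeR adjusted p = 3.86e-09). PDCD6IP (ALIX) was lower than in HN4 in HN6 (-0.42) and in Cal27 (-0.59), edgeR adjusted p = 0.00416 and 2.64e-04.

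In the ESCRT complexes, VPS28, an ESCRT-I subunit, was high in HN4, at 63.5, 62.3 and 63.2 CPM, against 20.3, 19.1 and 21.1 in HN6 and 23.01, 18.3 and 20.4 in Cal27. The difference was -1.66 (SE 0.24, edgeR adjusted p = 7.62e-06) for HN6 and -1.60 (SE 0.24, 1.15e-05) for Cal27, and the other lines overlapped each other. STAM, which with HGS forms the ESCRT-0 cargo receptor, was at 39.2, 39.4 and 31.8 CPM in HN4 and 13.7, 16.97 and 16.9 in Cal27 (log2 difference -1.20, SE 0.11, edgeR adjusted p = 4.45e-08). CHMP1A, a late ESCRT-III subunit that helps recruit VPS4, was highest in HN6, at 297, 267 and 282 CPM against 134, 132 and 139 in HN4 and 113, 102 and 106 in Cal27. HN6 was above both lines without overlap (log2 1.05 against HN4, and -1.37 for Cal27 against HN6, edgeR adjusted p = 7.04e-05 and 3.70e-06). CHMP2A, also of ESCRT-III, was higher in Cal27, with 97.4, 91.5 and 95.4 CPM against 49.7, 48.6 and 51.2 in HN6 (log2 difference 0.96, SE 0.16, edgeR adjusted p = 2.94e-05). CHMP4B and CHMP6 were lower in Cal27 than in HN6 (-0.92 and -0.87, edgeR adjusted p = 8.85e-08 and 5.27e-04). The ATPase VPS4B was lower in Cal27 than in HN4 (log2 difference -0.91, SE 0.11, edgeR adjusted p = 7.92e-07).

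Of the RAB GTPases, RAB31 (chr18:9708165-9862551, hg38) read 56.9, 55.8 and 52.6 CPM in HN4, 141, 147 and 140.3 in HN6 and 148, 163 and 155 in Cal27. It was lower in every HN4 library than in any of the other lines (HN6 against HN4: log2 difference 1.36, SE 0.0676, edgeR adjusted p = 5.61e-12; Cal27 against HN4: log2 difference 1.51, SE 0.0677, edgeR adjusted p = 1.35e-12). RAB27B was higher in Cal27 than in HN4, with 27.00, 38.9 and 28.2 against 15.4, 15.6 and 13.03 CPM (log2 difference 1.11, SE 0.16, edgeR adjusted p = 8.89e-06), while its relative RAB27A was lower (-0.65, edgeR adjusted p = 5.93e-07). SMPD3 was low everywhere and highest in Cal27, at 4.52, 3.15 and 4.26 CPM, against 1.58, 1.86 and 1.45 in HN4 and 1.58, 2.40 and 1.59 in HN6. Cal27 lay above both without overlap (log2 difference 1.30, SE 0.23, edgeR adjusted p = 9.24e-05 against HN4, and log2 1.12 against HN6, 3.16e-04). FLOT1, a membrane raft protein found on exosomes, was higher in HN4 than in HN6 (log2 -0.87 for HN6, edgeR adjusted p = 9.03e-05) and Cal27 (-1.15, 4.85e-06).

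The vector libraries gave a second reading of Cal27 against HN6, from libraries that the untreated comparison did not use. Again 9 of the 37 genes were higher and 16 lower, against 36.7% and 36.6% of all tested genes, with a median of -0.10 against 0.00747 over all genes. Of the 25 genes called in each reading, 23 (92% of each) were called in both, all with the same sign, where over all genes 92.2% and 85.3% were. Sizes were close: CHMP1A was at -1.37 in the untreated and -1.39 in the vector libraries (adjusted p = 1.05e-18 by edgeR), SDC1 at -1.15 and -1.20 (5.87e-20), CD82 at -1.12 and -1.09 (2.45e-08), SDCBP at 1.05 and 1.003 (4.00e-20), CHMP2A at 0.96 and 0.96 (2.22e-15), and SMPD3 at 1.12 and 0.94 (0.00218). Scaling by library sizes alone shifted the median of all genes by 0.12 in both readings and moved the members called to 11 higher and 13 lower, and to 13 and 16.

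**Figure D2:**
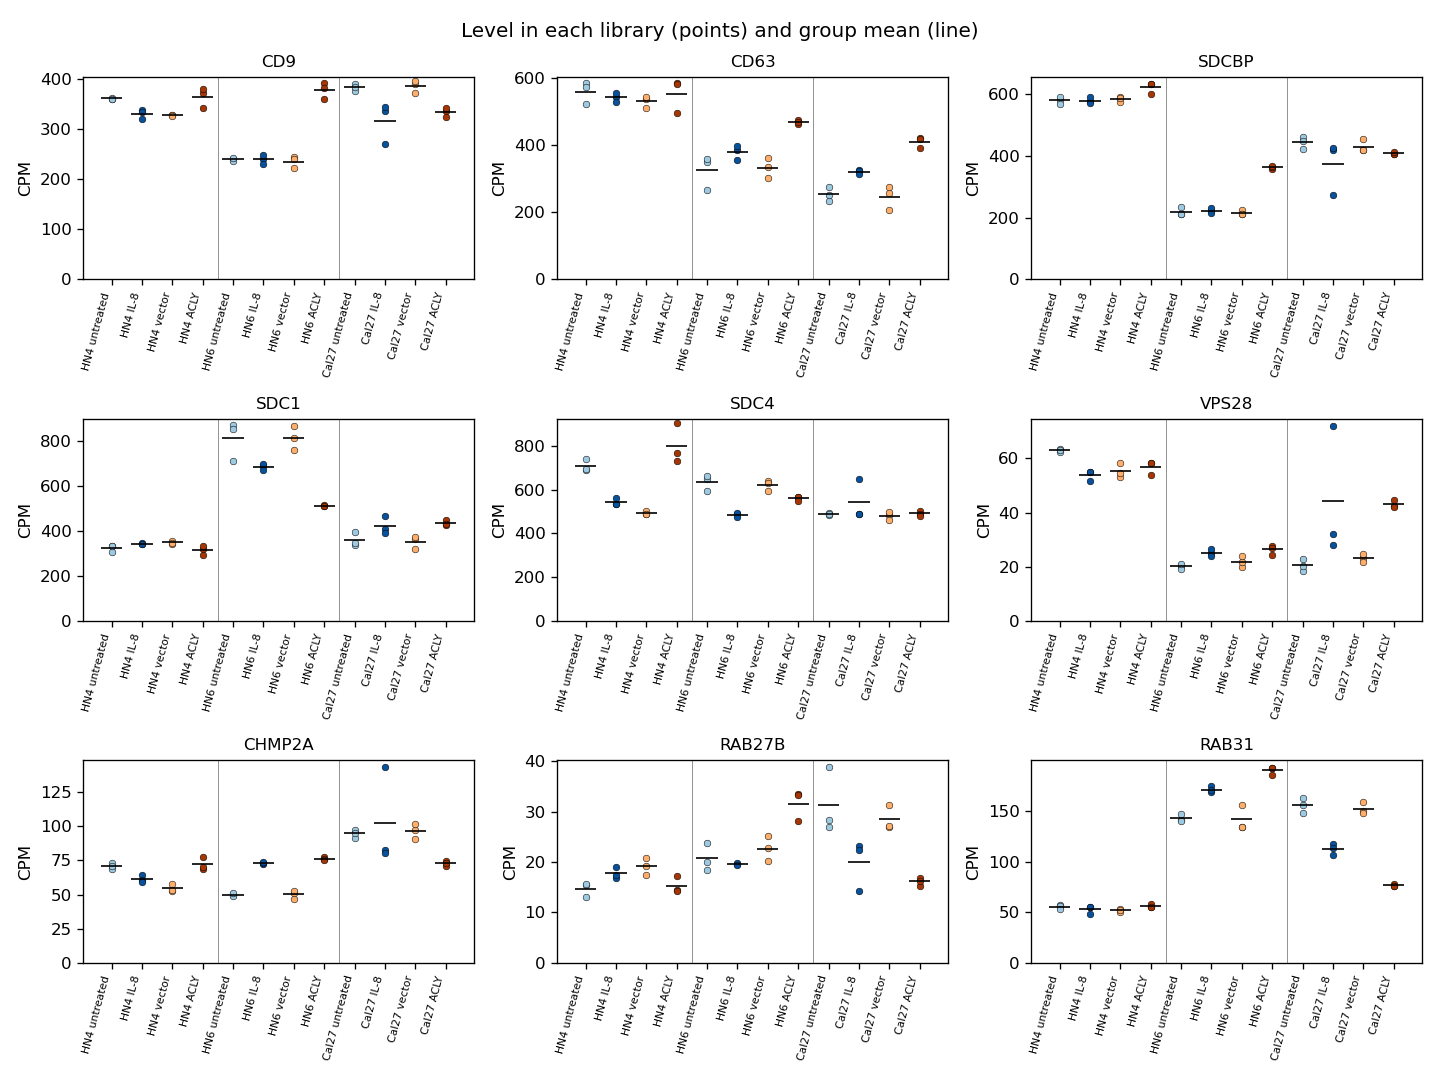
CPM of 9 vesicle genes in each library (points) and group mean of 3 (line), by group on the x axis, with vertical lines between HN4, HN6 and Cal27. RAB31 lay between 48.6 and 57.8 CPM in the 12 HN4 libraries and above 75 in all others, and replicate 3 of Cal27 IL-8 is the point far from its mates for VPS28, CHMP2A and SDCBP.

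With IL-8, HN4 changed little in these genes. SDC4 (chr20:45325288-45348424, hg38) read 742, 688 and 697 CPM in untreated HN4 and 533, 533 and 564 with IL-8. The groups did not overlap, and SDC4 fell (log2 difference -0.38, SE 0.0946, edgeR adjusted p = 0.0115). CHMP4A, of the ESCRT-III filament, read 1.78, 2.14 and 1.63 CPM and then 0.675, 0.895 and 1.18 and was called lower (log2 difference -1.004, SE 0.26, edgeR adjusted p = 0.0166), on 1 to 2 CPM and with exons shared as above. No other member passed: 0 of 37 were higher and 2 lower, against 6.89% and 7.09% of all tested genes, and the median was 0.03 (all genes -0.00789). Without Cal27 IL-8 replicate 3, which enters this test only through the estimate of spread, 10 members passed, among them PDCD6IP (0.13), RAB7A (0.12), CHMP2B (0.23) and RAB35 (0.34) higher and CD9 (-0.13), VPS28 (-0.22), CHMP2A (-0.21) and FLOT1 (-0.25) lower; 30.3% of all genes tested then passed, against 13.98% with it. The calls of both genes had little margin: SDC4 was not called without HN4 untreated replicate 1 (adjusted p = 0.0561 by edgeR) or without HN4 IL-8 replicate 2 (0.0536), nor was CHMP4A without HN4 untreated replicate 2 or HN4 IL-8 replicate 1 or 2.

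In HN6, IL-8 lowered SDC4 again and raised CHMP2A and RAB31. SDC4 read 649.9, 594 and 664 CPM untreated and 487, 492 and 475 with IL-8 (log2 difference -0.38, SE 0.0946, edgeR adjusted p = 0.0106). CHMP2A (chr19:58551566-58555124, hg38), the ESCRT-III subunit that binds VPS4, read 49.7, 48.6 and 51.2 CPM and then 72.5, 73.00 and 73.6 (log2 difference 0.56, SE 0.16, edgeR adjusted p = 0.0205). RAB31 read 141, 147 and 140.3 and then 168, 174 and 171 CPM (log2 difference 0.27, SE 0.0657, edgeR adjusted p = 0.00897). In each of these, named partly for lack of overlap, the IL-8 libraries stood clear of the untreated ones. HGS, the ubiquitin-binding ESCRT-0 subunit, fell by 0.32 on the log2 scale (edgeR adjusted p = 0.0225) and SMPD3 by 0.94 (0.0299), the latter from 1.58, 2.40 and 1.59 to 0.703, 0.914 and 1.28 CPM. In all, 2 of 37 were higher and 3 lower, against 7.61% and 7.81% of all tested genes, with a median of -0.07 (all genes 0.00216). Without Cal27 IL-8 replicate 3, 17 members passed (7 higher and 10 lower), as did 32.7% of all genes against 15.4% with it. Leaving out 1 of the 6 HN6 libraries ended the call of CHMP2A for each of them (log2 0.54 to 0.59, edgeR adjusted p = 0.0502 to 0.0746), of HGS for 4, of SMPD3 for 3 and of SDC4 for untreated replicate 3 (0.0518); RAB31 was called in all 6, and the lowest count, 2 members, came without HN6 IL-8 replicate 2.

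In Cal27, 12 of 37 vesicle genes rose with IL-8 and 4 fell, against 22.7% and 16.7% of all tested genes, with a median of 0.16 against 0.00416. Those higher came from most roles: CD63, CD81 and CD151, STAM, VPS28, CHMP1A and CHMP4B, VPS4A, RAB5A and RAB35, SMPD2 and FLOT1. Lower were CD9, STAM2, RAB27B and RAB31. None of the 4 syndecan-syntenin-ALIX genes passed. RAB31 read 148, 163 and 155 CPM untreated and 117, 113 and 107 with IL-8, the groups apart (log2 difference -0.48, SE 0.0659, edgeR adjusted p = 2.22e-05). RAB27B read 27.00, 38.9 and 28.2 and then 23.3, 22.5 and 14.2 CPM (log2 difference -0.66, SE 0.16, edgeR adjusted p = 0.00325). CD63 read 276, 232 and 251 and then 325, 322 and 314 CPM, without overlap (log2 0.33, edgeR adjusted p = 0.0126).

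Several of the larger rises took their size from replicate 3 of Cal27 IL-8. VPS28 read 23.01, 18.3 and 20.4 CPM untreated and 32.2, 28.2 and 71.9 with IL-8 (log2 difference 1.09, SE 0.24, edgeR adjusted p = 0.00159), and without that library its difference was 0.53 (adjusted p = 4.99e-06 by edgeR). CD151, a tetraspanin that holds laminin-binding integrins, read 148, 112 and 124 and then 168, 163 and 289.7 CPM and went from 0.68 to 0.35. SMPD2 (nSMase1) went from 0.69 to 0.28, VPS4A from 0.66 to 0.33, CHMP1A from 0.60 to 0.17 and FLOT1 from 0.60 to 0.27. Smaller calls shrank as well: RAB35 from 0.43 to 0.16, CD81 from 0.27 to 0.14, STAM2 from -0.43 to -0.28 and CD9 from -0.29 to -0.19. RAB31 moved little, from -0.48 to -0.45, and RAB27B went to -0.48. CHMP4B went from 0.47 to 0.32, STAM from 0.33 to 0.46, RAB5A from 0.31 to 0.37 and CD63 from 0.33 to 0.34. CHMP1A was not called without Cal27 untreated replicate 2 (0.0574). Without the library 24 members passed (18 higher and 6 lower), including all 16 called with it, and 41.7% of all genes against 39.4% with it; the added ones were PDCD6IP, HGS, VPS25, VPS4B, RAB7A and RAB11A, higher, and CHMP2A and FLOT2, lower. Fitted on the 6 Cal27 libraries alone, 1 member passed, RAB31, and 15.6% of all genes. The level of the HN4-only genes, given above as a fraction of that in HN4, also rose in the Cal27 IL-8 libraries. The part of that rise in these differences was not tested.

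In HN4, the libraries labelled ACLY differed from those labelled vector in 14 of 37 vesicle genes, 8 higher and 6 lower, against 18.9% and 19.1% of all tested genes, with a median of -0.01 (all genes 0.0131). SDC4 was the member of largest difference, at 491, 503 and 487 CPM in vector and 768, 731 and 902 in ACLY (log2 difference 0.70, SE 0.0546, edgeR adjusted p = 2.15e-12). FLOT1 read 104, 106 and 102 and 136, 131 and 152 CPM (log2 difference 0.43, SE 0.0596, edgeR adjusted p = 4.80e-07), and CHMP2A 52.4, 57.9 and 53.4 and 68.8, 70.4 and 77.8 (log2 difference 0.41, SE 0.0649, edgeR adjusted p = 3.99e-06). None of these 3, named partly for lack of overlap, overlapped between the groups. Also higher in the libraries labelled ACLY was CD82 (0.30, edgeR adjusted p = 0.0285), and lower were RAB35, which recycles endosomes to the plasma membrane (-0.37, 2.80e-05), RAB27B (-0.32, 0.0147), STAM (-0.29, 0.00656) and HGS (-0.27, 8.81e-04). CD82 and FLOT2 were not called without HN4 ACLY replicate 3, and CD82 also not without ACLY replicate 1 or vector replicate 1 or 3. RAB27B was not called without ACLY replicate 1 or vector replicate 3, nor STAM without ACLY replicate 1, where the count was lowest, at 9 members. With upper-quartile factors the calls were 11 higher and 4 lower.

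The HN4 groups were also compared across the 2 experiments, in a fit of all 36 libraries. Between HN4 IL-8 and HN4 vector, 0 of 37 members passed (edgeR; 0 at an unadjusted p under 0.05, and DESeq2 also called 0), against 0.0827% of all genes higher and 0.00517% lower, 17 genes in all. Between the libraries labelled HN4 ACLY and untreated HN4, 0 members passed (1 at an unadjusted p under 0.05; DESeq2 called 0), against 0.517% higher and 0.377% lower, 173 genes. The means of SDC4 were 709 CPM untreated and 801 in the libraries labelled ACLY, and 543 with IL-8 and 494 in vector. SDC4 was the only member called in both HN4 comparisons, of 2 called with IL-8 and 14 in the plasmid libraries. It was lower with IL-8 and higher in the libraries labelled ACLY. The same share over all genes was not counted for HN4, so this does not set SDC4 apart. Experiment and group cannot be told apart here.

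HN6 with the ACLY plasmid had 17 vesicle genes higher and 5 lower of 37, against 26.8% and 24.9% of all tested genes, and a median of 0.13 (all genes 0.0364). Tetraspanins (3 of 5), RAB GTPases (5 of 7) and ESCRT-I (2 of 3) held most of the rises, and both syndecans fell. SDCBP read 225, 211 and 213 CPM in vector and 359, 363 and 368 in ACLY (log2 difference 0.75, SE 0.0455, edgeR adjusted p = 6.89e-16). Its syndecan partner SDC1 read 762, 870.3 and 815 and then 514, 515 and 511 CPM (log2 difference -0.67, SE 0.0545, edgeR adjusted p = 1.37e-12). Both genes, which in untreated HN6 lay far from HN4 on opposite sides, moved towards the HN4 level. RAB31 and CD82, which in untreated HN6 lay above HN4, rose further from it. Members moving either way in HN6 were not counted. CD9 read 221, 244 and 239 and then 359.6, 390.5 and 382 CPM (log2 difference 0.69, SE 0.0502, edgeR adjusted p = 8.08e-14).

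CD63 followed, at 300.2, 362 and 333 and then 473, 463 and 467 CPM (log2 difference 0.50, SE 0.0899, edgeR adjusted p = 1.72e-04). CHMP2A read 46.5, 50.8 and 52.9 and then 77.4, 76.2 and 75.5 CPM (log2 difference 0.61, SE 0.0650, edgeR adjusted p = 7.15e-10), a difference like that with IL-8 in this line (0.56). RAB31 read 156, 135 and 134 and then 193, 193 and 185 (log2 difference 0.43, SE 0.0550, edgeR adjusted p = 3.87e-08). In all 3, named partly for lack of overlap, the ACLY libraries lay above the vector libraries. Both RAB27 genes rose, RAB27B by 0.48 (edgeR adjusted p = 8.45e-05) and RAB27A by 0.40 (9.00e-05), and RAB35 fell by 0.49 on the log2 scale (6.94e-08). CHMP2A, RAB31 and SDC4 were the 3 genes called in both HN6 comparisons, 60% of the 5 called with IL-8 and 13.6% of the 22 called with ACLY, each with the same sign in both; over all genes 71.2% and 21.1% were called in both with the same sign. The levels of 6 genes read only in untreated HN6 were 0.862 ± 0.00519 of the untreated level in HN6 ACLY. Those of 15 such genes under the looser limits were 1.07 ± 0.0485, on the other side of 1. In HN6 ACLY the HN4-only genes stood at 0 of their HN4 level under both limits. Cal27-only genes stood there at 0.00114 and 0.000775 of their Cal27 level. The summed fibroblast markers ran from 18.5 to 22.1 CPM in vector and 52.6 to 60.6 in ACLY. The part of the HN6-only levels or of these markers in the result was not tested.

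The smaller calls of HN6 with ACLY filled in most roles. TSG101 rose by 0.37 (edgeR adjusted p = 2.98e-06), from 83.8, 75.6 and 74.7 to 100.5, 104 and 98.8 CPM, and VPS28 by 0.27 (0.00661). CD82, already highest in this line, read 239, 264 and 256 and then 318, 324 and 321 CPM (log2 difference 0.35, SE 0.0958, edgeR adjusted p = 0.00617). PDCD6IP rose by 0.24, STAM2 by 0.26, RAB5A by 0.23, RAB11A, of recycling endosomes, by 0.21, SMPD2 by 0.32, FLOT1 by 0.31 and CHMP4B by 0.13. Besides SDC1, RAB35 and SDC4 (-0.14), the falls were VPS4A (-0.30) and ARF6 (-0.23). CD81 (-0.003), CD151 (0.07), CHMP2B (0.03) and RAB7A (-0.05) did not pass.

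Cal27 with the ACLY plasmid had the most calls of the 6 treatment comparisons: 23 of 37 vesicle genes were higher and 7 lower, against 34.2% and 29.0% of all tested genes. The median was 0.27 against 0.0272 over all genes, but the median size was 0.37 for members and 0.51 for all genes. All 3 ESCRT-I genes, both VPS4 ATPases, 4 of 7 ESCRT-III genes, 4 of 7 RAB GTPases and 3 of 5 tetraspanins were higher. RAB31 read 149.9, 159 and 148 CPM in vector and 77.9, 76.3 and 75.6 in ACLY (log2 difference -1.004, SE 0.0566, edgeR adjusted p = 4.96e-17), a fold of 0.499. RAB27B read 26.97, 31.3 and 27.1 and then 15.2, 16.9 and 16.3 CPM (log2 difference -0.83, SE 0.10, edgeR adjusted p = 8.17e-09). VPS28 read 23.3, 21.7 and 24.6 and then 42.4, 41.98 and 44.7 (log2 difference 0.88, SE 0.0783, edgeR adjusted p = 7.69e-12), with replicates close to each other.

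CD63 in Cal27 read 258, 206 and 274 CPM in vector and 420.4, 416 and 391 in ACLY (log2 difference 0.72, SE 0.0905, edgeR adjusted p = 2.42e-06). RAB5A, of the early endosome, read 30.8, 30.5 and 29.6 and then 46.5, 52.5 and 50.1 (log2 difference 0.70, SE 0.0817, edgeR adjusted p = 3.44e-09). STAM read 16.8, 20.97 and 17.05 and then 28.7, 28.3 and 29.4 (log2 difference 0.64, SE 0.0908, edgeR adjusted p = 1.74e-07). In none of these, named partly for lack of overlap, did vector and ACLY libraries overlap. CD151 rose by 0.64 (edgeR adjusted p = 1.48e-10), and SMPD3 fell by 0.67 on the log2 scale (0.0250) at 3.63, 2.86 and 4.05 and 2.30, 1.96 and 2.45 CPM. The call of SMPD3 was lost without ACLY replicate 1 or 2 or vector replicate 1 or 3. The other falls were CD9 (-0.22), STAM2 (-0.40), CHMP2A (-0.42) and FLOT2 (-0.35). With upper-quartile factors, which shifted the median of all genes by -0.15, the calls were 17 higher and 11 lower.

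Further along the pathway in Cal27, RAB7A read 343, 343 and 343 CPM in vector and 524, 544 and 522 in ACLY (log2 difference 0.61, SE 0.0524, edgeR adjusted p = 2.56e-12). CHMP4B read 123, 121 and 123 and then 191, 194 and 178 (log2 difference 0.60, SE 0.0498, edgeR adjusted p = 1.14e-12), and VPS4B 58.9, 66.9 and 54.9 and then 90.4, 90.8 and 90.3 (log2 difference 0.57, SE 0.0590, edgeR adjusted p = 2.18e-10). The ACLY libraries were above all vector libraries in each. The ESCRT-II subunit VPS25 rose by 0.51, CHMP1A by 0.47, VPS4A by 0.45, FLOT1 by 0.46, HGS by 0.39, SMPD2 by 0.37, CD81 by 0.35, SDC1 by 0.29 and PDCD6IP by 0.27. SDC4 (0.02, 95% interval -0.0915 to 0.13) and SDCBP (-0.09, -0.18 to 0.00175), the members of largest difference in HN4 and in HN6 in this experiment, did not pass here, nor did RAB27A (0.15, -0.0178 to 0.32).

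The 2 Cal27 treatments, which share no library, overlapped in their calls. Each of the 16 members called with IL-8 was also called with ACLY with the same sign, 100% of the 16 and 53.3% of the 30, where over all genes 92.7% and 57.3% were; the other 14 were called with ACLY and not with IL-8. Both treated groups held HN4-only RNA at the levels given above, so each mean was set beside the span of the 4 HN4 group means and the 2 Cal27 control means. With IL-8, 14 of 16 called members lay, from the Cal27 control of the other experiment, in the direction of untreated HN4, and 6 of 16 lay outside the span, 5 above (CD81, CHMP1A, VPS4A, RAB35 and SMPD2) and CD9 below. From replicates 1 and 2 of Cal27 IL-8 alone, 3 of the 16 lay outside, CD81, VPS4A and SMPD2, all above; CHMP1A (a mean of 122 CPM), RAB35 (87.99) and CD9 (339.7) then lay inside. With ACLY, 25 of 30 lay in the direction of HN4 and 9 of 30 outside the span, 7 above and 2 below. These counts were made for the vesicle genes alone, with no share over all genes beside them, and do not set these genes apart. SMPD2 was outside both times, at 23.7 CPM with IL-8 (17.9 without replicate 3) and 20.03 with ACLY, against 14.6 in untreated Cal27 and 12.95 in HN4. VPS4A was too, at 76.03 (61.1 without replicate 3) and 69.01 CPM against 47.9 and 56.3. RAB31, RAB27B, VPS28 and CD63 lay inside the span, between the Cal27 and HN4 levels; the part of the HN4-only RNA in these differences was not tested.

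**Figure D3:**
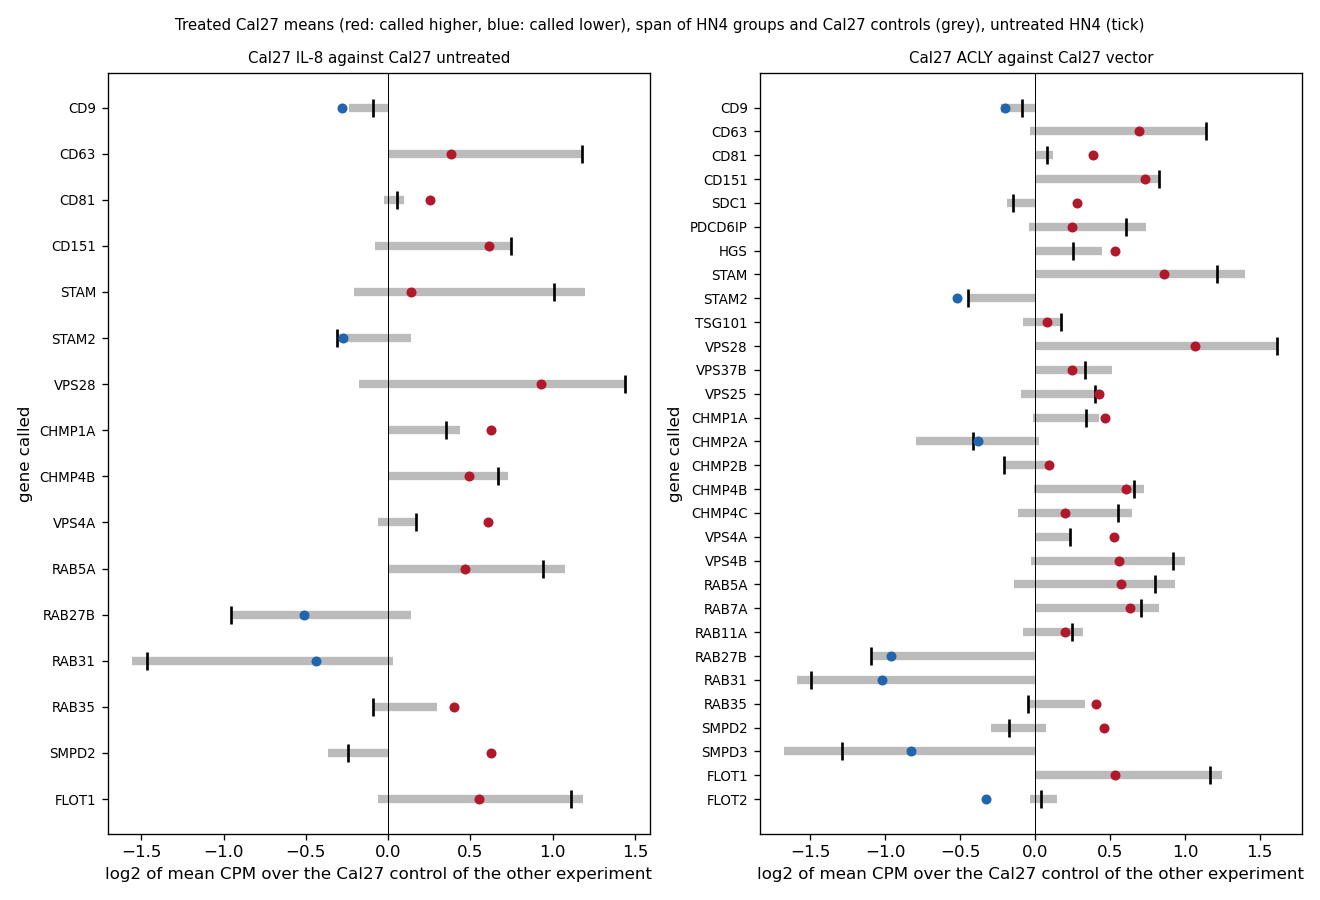
For each vesicle gene called in Cal27 with IL-8 (left, 16 genes) and with ACLY (right, 30 genes), the treated mean of 3 libraries (point; red higher, blue lower) and the span of the 4 HN4 group means and 2 Cal27 control means (grey bar), as log2 over the mean of the Cal27 control of the other experiment, with untreated HN4 as a tick. The points lie inside the bar for 10 of 16 and 21 of 30 genes. Without replicate 3 of Cal27 IL-8, the left count is 13 of 16. The same counts over all genes were not made.

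**Figure D4:**
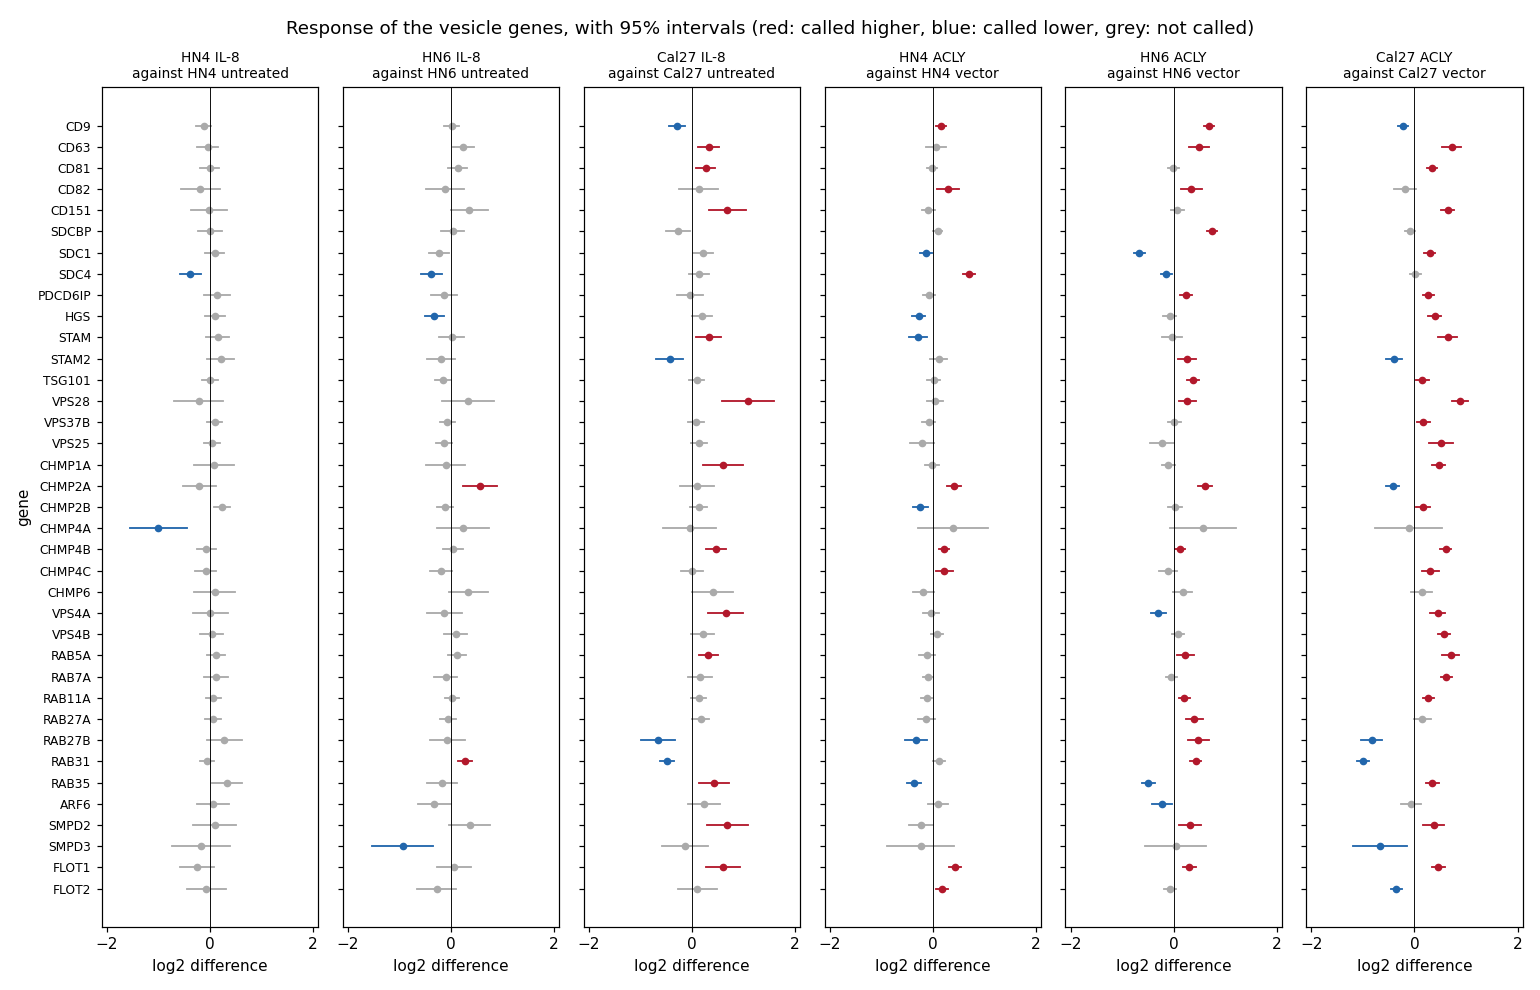
Log2 differences of the 37 tested genes (rows) in the 6 treatment comparisons (panels), with 95% intervals from the edgeR fit; red is called higher, blue called lower and grey not called. The count of coloured points runs from 2 in HN4 with IL-8 to 30 in Cal27 with ACLY, and RAB31 lies right of 0 in HN6 and left of 0 in Cal27.

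Whether a response differed among the lines was tested on the difference itself. The response to IL-8 differed in 14 of 37 vesicle genes, against 40.2% of all tested genes. RAB31 led (log2 -0.06 in HN4, 0.27 in HN6 and -0.48 in Cal27, edgeR adjusted p = 2.59e-05), followed by SDC4 (-0.38, -0.38 and 0.14, 0.00580), CHMP4B (-0.07, 0.04 and 0.47, 0.00645) and HGS (0.10, -0.32 and 0.20, 0.00829). Without Cal27 IL-8 replicate 3 the response differed in 24, those 14 included, and in 54.4% of all genes; the Cal27 differences were then -0.02 for SDC4, 0.32 for CHMP4B and 0.26 for HGS, and the edgeR adjusted p was 9.73e-10 for RAB31 and 6.42e-06 for SDC4. The response to the plasmids, as labelled, differed in 33 of 37, against 70.9% of all genes. RAB31 led again (0.12 in HN4, 0.43 in HN6 and -1.004 in Cal27, edgeR adjusted p = 3.60e-17), then SDCBP (0.10, 0.75 and -0.09, 1.76e-13) and CD9 (0.16, 0.69 and -0.22, 9.91e-13). RAB7A rose in Cal27 alone of these comparisons (-0.09, -0.05 and 0.61, 1.04e-10). The HN4 term carries the doubt on its labels. The Cal27 term of both tests includes libraries that held HN4-only RNA, whose part in it was not tested.

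Ratios of related genes, per kilobase of gene length, are descriptions with no test. The length counts all annotated exon bases of a gene, so a ratio above or below 1 does not settle which gene dominated. RAB27B to RAB27A was 0.319, 0.338 and 0.297 in untreated HN4 and 0.608, 0.668 and 0.521 in HN6. In Cal27 it was 0.946, 1.26 and 1.02 untreated and 0.706, 0.666 and 0.444 with IL-8, and 0.914, 1.003 and 0.849 in vector and 0.440, 0.505 and 0.457 with ACLY. In Cal27 controls the ratio of the RAB27 genes was thus near 1, and the treated libraries fell below every control library. STAM2 to STAM was 1.41, 1.36 and 1.35 in untreated Cal27 and 0.778, 0.867 and 0.777 with IL-8. It was 1.09, 1.05 and 1.10 in vector and 0.490, 0.528 and 0.554 with ACLY. The ratio thus lay above 1 in Cal27 controls and below 1 in the treated libraries. In CPM, STAM2 stayed above STAM in the treated groups, with means of 35.2 and 20.1 with IL-8 and 32.6 and 28.8 with ACLY. In the HN4 groups the mean ratio of STAM2 to STAM ran from 0.403 (vector) to 0.535 (labelled ACLY). SDC1 to SDC4 was 0.866, 1.01 and 0.998 in HN6 vector and 0.657, 0.659 and 0.676 in HN6 ACLY. CHMP2A to CHMP2B was 0.940, 0.803 and 0.870 in untreated HN6 and 1.44, 1.33 and 1.40 with IL-8, and 0.747, 0.956 and 0.988 in vector and 1.33, 1.37 and 1.29 with ACLY. In HN6 the ratio of these ESCRT-III subunits thus lay below 1 in the untreated and vector libraries and above 1 in the treated ones. In HN4 the mean was 1.47 untreated and 1.08 with IL-8, and 0.912 in vector and 1.44 in ACLY as labelled. Cal27 means were 1.70 untreated and 1.66 with IL-8 (2.38 in replicate 3), and 1.84 in vector and 1.22 with ACLY. The part of the HN4-only RNA in the Cal27 ratios was not tested.

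**Figure D5:**
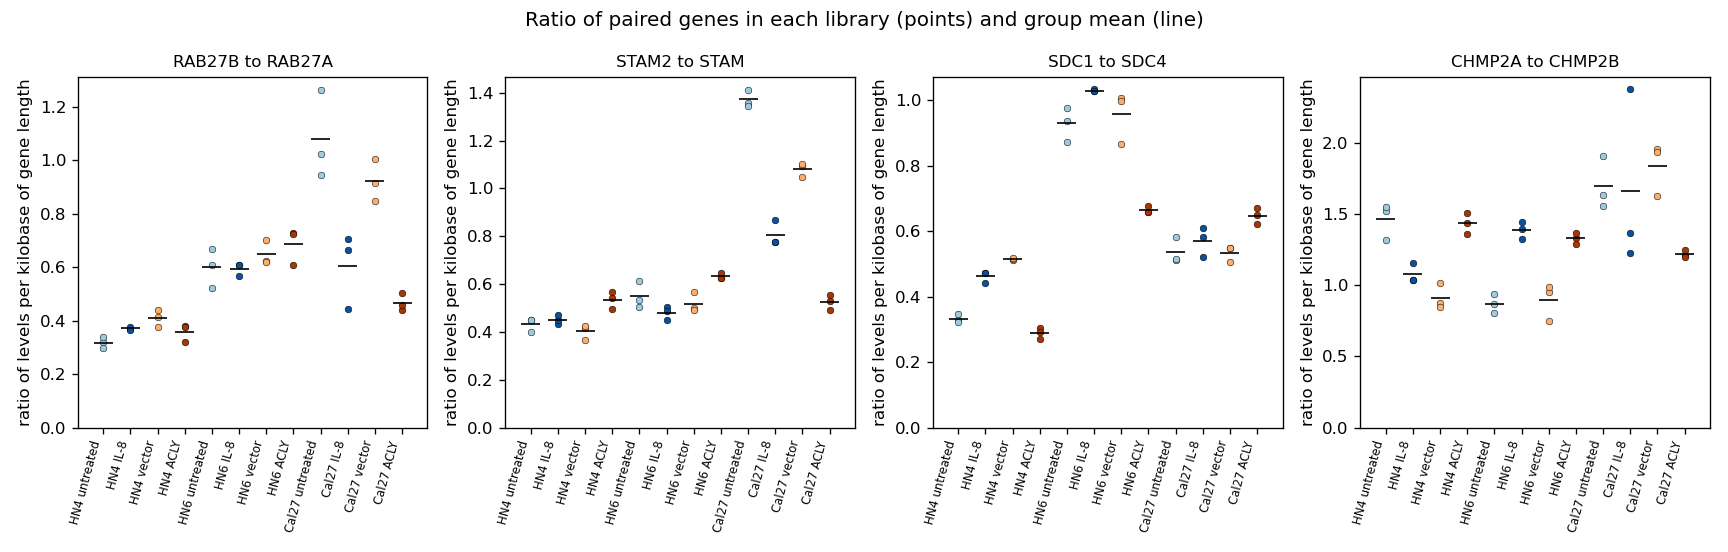
Ratio of 4 pairs of related vesicle genes, each level per kilobase of gene length, in each library (points) and group mean of 3 (line), by group. The ratio of RAB27B to RAB27A and that of STAM2 to STAM are lower in both treated Cal27 groups than in their controls, and that of SDC1 to SDC4 is lower in HN6 ACLY than in the other HN6 groups. Both treated Cal27 groups held HN4-only RNA, whose part in the ratios was not tested.

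Other genes of the same machinery were read from lists of related genes. Among RAB27 effectors, RAB regulators and relatives, 8 higher and 3 lower of 17 passed in Cal27 with IL-8 (6 and 3 without replicate 3) and 9 higher and 4 lower of 17 with ACLY. Over all genes 22.7% were higher and 16.7% lower with IL-8 (23.6% and 18.1% without replicate 3), and 34.2% and 29.0% with ACLY; these shares stand beside every Cal27 list. SYTL4 (granuphilin), which tethers RAB27 vesicles, read 0.266, 0 and 0.0991 CPM in untreated Cal27 and 2.40, 2.77 and 3.92 with IL-8, and 0.0497, 0.0530 and 0.0520 in vector and 6.90, 4.88 and 4.85 with ACLY, against a mean of 12.1 in untreated HN4. UNC13D (Munc13-4), a RAB27 effector that primes fusion, averaged 27.1 ± 0.779 CPM untreated and 98.8 ± 10.5 with IL-8 (log2 difference 1.86, SE 0.0862, edgeR adjusted p = 2.69e-11; log2 1.76 without replicate 3), and 31.2 ± 3.003 and 157 ± 1.14 with ACLY (log2 difference 2.32, SE 0.0625, edgeR adjusted p = 4.63e-26), against 212 in untreated HN4. Both of these effectors were higher while RAB27B was lower, but 3 (IL-8) and 4 (ACLY) of the 17 genes of their list were lower. The treated means of SYTL4, UNC13D and RAB27B lay between those of the Cal27 controls and untreated HN4. The part of the HN4-only RNA in these differences was not tested.

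Of the fusion SNAREs, 4 higher and 0 lower of 8 passed in Cal27 with IL-8 (3 and 0 without replicate 3) and 4 higher and 0 lower of 8 with ACLY, among them YKT6, a SNARE of exosome release, at 0.72 and 0.88, and STX1A at 0.84 and 1.49. Of sphingomyelin and phospholipid enzymes, 0 higher and 4 lower of 6 passed with IL-8 (1 and 4 without replicate 3) and 2 higher and 4 lower of 6 with ACLY; PLD1, a phospholipase D that makes phosphatidic acid, fell by 0.85 and 1.70 on the log2 scale (edgeR adjusted p = 1.22e-06 and 8.34e-17). Lysosome route genes were 3 higher and 1 lower of 7 (3 and 2 without replicate 3) and 4 higher and 2 lower of 7, with the protease CTSD at 0.91 and 0.70 and the lysosomal channel MCOLN1 at 0.79 and 0.86. Other ESCRT genes were 1 higher and 3 lower of 15 (2 and 2 without replicate 3) and 5 higher and 3 lower of 15. Without replicate 3 the differences with IL-8 were smaller for YKT6 (0.46), STX1A (0.75), CTSD (0.36) and MCOLN1 (0.52) and -0.82 for PLD1, all 5 still called. Both treated Cal27 groups held HN4-only RNA, whose part in these counts and differences was not tested.

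In HN6 with ACLY the lists gave 6 higher and 2 lower of 17 for RAB effectors and relatives, 5 higher and 0 lower of 7 for the lysosome route, 4 higher and 1 lower of 8 for SNAREs and 5 higher and 4 lower of 15 for other ESCRT genes, beside 26.8% higher and 24.9% lower of all genes. SYTL2, a RAB27 effector, averaged 18.1 ± 2.29 and then 52.4 ± 3.43 CPM (log2 difference 1.54, SE 0.11, edgeR adjusted p = 6.80e-14), the plasma membrane SNARE SNAP23 5.99 ± 0.647 and 11.9 ± 0.791 (log2 difference 0.997, SE 0.13, edgeR adjusted p = 5.31e-08), and the lysosomal transcription factor TFEB 5.65 ± 0.898 and 10.7 ± 2.48 (log2 difference 0.92, SE 0.20, edgeR adjusted p = 2.41e-04). PLD1, lower in Cal27 with ACLY, was higher in HN6 with ACLY (1.04, edgeR adjusted p = 1.21e-11). Its response to the plasmids differed among the 3 lines, with HN4 taken as labelled (edgeR adjusted p = 3.71e-18). The Cal27 ACLY libraries in that test held HN4-only RNA, whose part in it was not tested. With IL-8 in HN6, other tetraspanins and partners were 5 higher and 1 lower of 14, beside 7.61% and 7.81% of all genes, with TSPAN15 at 0.52 (edgeR adjusted p = 0.00356). Without Cal27 IL-8 replicate 3 that list held 7 higher and 1 lower of 14, beside 15.1% and 17.6% of all genes.

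In HN4 the related lists held few calls with IL-8: 1 higher and 0 lower of 15 for other ESCRT genes, 1 higher and 1 lower of 14 for other tetraspanins and partners, 1 higher and 0 lower of 17 for RAB effectors and relatives and 0 higher and 1 lower of 6 for sphingomyelin and phospholipid enzymes, beside 6.89% higher and 7.09% lower of all genes. The last was PLD2, a phospholipase D (-0.46, edgeR adjusted p = 0.00143). Without Cal27 IL-8 replicate 3, other ESCRT genes were 2 higher and 0 lower of 15, and other tetraspanins and partners 3 and 4 of 14. RAB effectors and relatives were then 3 and 2 of 17, SNAREs 1 and 2 of 8, and sphingomyelin and phospholipid enzymes 0 and 2 of 6. Over all genes 16.4% were then higher and 13.9% lower. TSPAN5, a tetraspanin that carries the protease ADAM10, read 7.70, 7.83 and 7.10 CPM untreated and 13.2, 13.6 and 15.3 with IL-8 (log2 difference 0.90, SE 0.10, edgeR adjusted p = 1.64e-05). EXPH5, a RAB27 effector also called Slac2-b, differed by 0.72 (edgeR adjusted p = 0.00234) and VTA1, a cofactor of VPS4, by 0.32 (0.0335). In the HN4 plasmid libraries, as labelled, these genes had the opposite sign, at -1.01, -0.79 and -0.33 for ACLY against vector (edgeR adjusted p = 7.15e-09, 7.26e-05 and 6.45e-04).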

How the data were processed

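Whole-number counts per gene for 36 libraries were deposited by the authors, with no normalization; the submitters' processing notes name the build hg38, the aligner HISAT2 2.0.5 and the counter featureCounts 1.5.0-p3, beside CASAVA and DESeq2. Whether counting used strand is not given in the sources used here, which leaves genes with shared exons uncertain. Reads carried no molecular identifiers, so limits cover counting error only. Groups and replicate numbers came from the labels. Totals of 16570601 to 20232735 counts per library set the precision (0.148 to 0.181 CPM for 3 counts). No 2 replicates were alike within sampling noise.

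Counts were fitted over all genes with the quasi-likelihood test of edgeR 4.0.16 under R 4.3.3 (limma 3.58.1), with TMM factors, filterByExpr (minimum count 10, minimum total 15), a robust fit and 1 mean per group. A fit held the 18 libraries of an experiment (18398 genes for IL-8, 18556 for the plasmids, 12 residual degrees of freedom), or all 36 libraries (19349 genes, 24) for comparisons across experiments. P-values are two-sided and adjusted by Benjamini-Hochberg over all genes tested, and a gene at under 0.05 is called; differences of a response among the lines were tested on 2 degrees of freedom. Only the edgeR fit was tested on simulated counts, for the HN4 IL-8 comparison, with the same spread for all genes and no deviant library. The other steps were not tested in this way. Levels are CPM with TMM factors over 36 libraries, and RPKM divides them by gene length. Promoter sequences are from RefSeq (GRCh38.p14).

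The text names up to 8 members per comparison past the threshold and without overlap between libraries, by size, and up to 4 such genes of each related list, with ACLY as label check; other members are named for counts, ratios or side-by-side values after their values were seen. For genes named by the rule of no overlap, the lack of overlap follows from the choice and is no added support. The share of all genes without overlap was not counted. The members, lists and tests were chosen with earlier results of these data known. Alternatives were DESeq2 1.42.0, other scalings and filters, other sets of libraries, the replicate block and leaving out each library. Numbers did not pair the samples: in no comparison did every pair of deviations correlate above 0.1. The summed leukocyte markers are not reported here. Figures were drawn with matplotlib 3.10.9 (Python 3.11.15, pandas 2.3.3).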

Additional observations from a re-analysis of the deposited data

Results flagged for a closer look

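The response differed among the 3 lines, by the test of the difference itself, in 14 of 37 vesicle genes with IL-8, beside 40.2% of all genes, and in 33 with the plasmids, beside 70.9%, the latter with HN4 taken as labelled. With IL-8 the adjusted p-values of edgeR were 2.59e-05 for RAB31, 0.00580 for SDC4, 0.00645 for CHMP4B, 0.00829 for HGS, 0.00977 for RAB27B, 0.0124 for VPS28, 0.0150 for FLOT1 and 0.0205 for VPS4A. With the plasmids they were 3.60e-17 for RAB31, 1.76e-13 for SDCBP, 9.91e-13 for CD9, 2.45e-12 for SDC1, 4.05e-12 for CHMP2A, 1.28e-11 for SDC4, 1.04e-10 for RAB7A and 7.38e-10 for RAB35. RAB31 was the vesicle gene of smallest adjusted p in both. It rose in HN6 and fell in Cal27 in both experiments. The treated Cal27 groups held HN4-only genes at 0.310 (IL-8) and 0.541 (ACLY) of their HN4 level. Their RAB31 means, 112 and 76.6 CPM, lay between untreated HN4 (55.1) and the Cal27 controls (156 untreated and 152 vector). The part of the HN4-only RNA in the Cal27 falls was not tested.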

How the results depend on the processing

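The 71 differences recomputed here were chosen as called and without overlap in the main fit, which makes a change of sign less likely. None of them changed sign. Of 1114 recomputed values, 1068 kept their side of the threshold and 46 lost it. Of the 46, 18 were in HN6 with IL-8, 10 in HN4 ACLY against vector as labelled and 8 in Cal27 with IL-8. A further 6 were in HN4 with IL-8 and 4 in Cal27 with ACLY. Outside this choice signs did change, as for SDC4 in Cal27 with IL-8 without replicate 3 of that group. Fits of the 6 libraries of a comparison alone called 13 members in HN4 with IL-8, 14 in HN6 with IL-8 and 1 in Cal27 with IL-8, against 2, 5 and 16, and 41.8%, 38.6% and 15.6% of all genes, against 13.98%, 15.4% and 39.4%. A fit of all 36 libraries called 4 in HN4 with IL-8 and 8 in HN4 ACLY against vector, and keeping genes with a mean of at least 5 CPM, which removes CHMP4A, gave 1 in HN4 with IL-8. The replicate block called 1 in HN4 with IL-8 and 9 for the IL-8 response among lines, and changed no other count by over 1.5 times; the numbers do not pair the samples. Leaving out each library gave 0 to 10 members in HN4 with IL-8, 2 to 17 in HN6, 11 to 24 in Cal27, 9 to 14 in HN4 ACLY against vector, 18 to 24 in HN6, 27 to 30 in Cal27, 26 to 32 for HN6 against HN4, 21 to 31 for Cal27 against HN4, 23 to 32 and 25 to 30 for Cal27 against HN6 (untreated and vector), 10 to 24 and 31 to 34 for the responses among lines to IL-8 and to the plasmids, and 0 in both comparisons across experiments. The highest counts of the IL-8 experiment came without Cal27 IL-8 replicate 3, and the lowest of HN4 (0) without HN4 IL-8 replicate 2; the cause of the other shifts was not tested. The runs that leave Cal27 IL-8 replicate 3 or HN4 ACLY replicate 3 out of comparisons that do not use them, or the former out of the related lists and the span of Cal27 and HN4 levels, were chosen after seeing the data. With 3 libraries a group and CPM near 1, CHMP4A and SMPD3 rest on few counts.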

Other observations

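Replicate 3 of Cal27 IL-8 and replicate 3 of HN4 ACLY, the 2 libraries of lowest mitochondrial share, were each set against the mean of their own replicates 1 and 2. In Cal27 IL-8, 19 of 37 vesicle genes differed by over 0.5 on the log2 scale, 13 higher and 6 lower; in HN4 ACLY 2 did. ARF6, which acts with PLD in budding, read 142, 147 and 248 CPM in the Cal27 IL-8 libraries, CHMP2A 82.4, 80.6 and 144, SDCBP 418, 426 and 274 and RAB7A 439, 439 and 279. ARF6 and CHMP2A were high in the third library, SDCBP and RAB7A low. Of the 19, 12 had the same sign in HN4 ACLY replicate 3, as had 26 of all 37, and across the 37 genes the deviations had Pearson's r = 0.424 and Spearman's rho = 0.485, a description over genes, which are not independent.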
